A study of Mus musculus with 3 samples.

Results

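Retinoic acid is made, carried and read by a small set of proteins, and 9 genes of that set were followed in cultured mouse heart cells. They are the retinal dehydrogenases Aldh1a1, Aldh1a2 and Aldh1a3, the retinal reductase Dhrs3, the binding proteins Crabp1 and Crabp2, and the receptors Rara, Rarb and Rarg. The genes were taken by symbol from the deposited expression table, which lists 18245 genes and holds all 9. RNA from 3 kinds of cultured C57BL/6 heart cell had been sequenced, with 3 libraries per kind. CDC are cardiosphere-derived cells, grown from ventricle epicardium peeled from mice of 6 weeks and taken at passage 3. CDC-EpiC is a single epithelial clone, picked by cylinder from CDC that had spent 2 weeks in 10 µM SB-431542, which blocks signalling by the type I receptor of TGF-beta. Its passage is not given in the sources used here, and its 3 libraries carry no difference between clones. pEpiC are primary epicardial cells obtained by enzyme digestion of hearts from mice of 6 to 8 weeks, also at passage 3. The study's methods give CDC and pEpiC different culture media, with less serum for pEpiC. Kind of cell, way of isolation and medium therefore cannot be told apart in the comparisons below, and an effect of the medium was not tested. The clone also differs from CDC and pEpiC by its SB-431542 treatment, by being a single picked clone and perhaps by passage. These cannot be told apart either. No library is known to come from an animal or culture of its own, so the p-values measure the spread between these libraries, which may be technical.

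Cells take up retinol and oxidise it to retinal, and the ALDH1A enzymes turn retinal into retinoic acid in a step that cannot be reversed. DHRS3 works against them by reducing retinal back to retinol. CRABP proteins hold retinoic acid in the cytoplasm, and CRABP2 delivers it to the nucleus, where RAR and RXR proteins bind DNA as a pair and switch genes on when the ligand is present. Aldh1a2 is the main source of retinoic acid in the developing epicardium, and Rarb and Dhrs3 are themselves textbook targets of the receptors.

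Total expected counts lay between 22008833 and 22756045 per library. Levels are given as CPM, counts per 1000000 counts after TMM scaling, unless TPM is named, which also accounts for transcript length. A count of 3, taken as the floor, is worth 0.129 to 0.138 CPM. The summed level of 8 epicardial markers was 629 to 640 CPM in CDC, 4057 to 4658 CPM in CDC-EpiC and 376 to 403 CPM in pEpiC. In pEpiC over CDC, 2 of the 8 were higher (Wt1 and Tcf21) and 6 lower, among them Krt19 (log2 change -4.90) and Upk3b (-1.77), and the primary cells had the lowest sum. In the clone over CDC, 6 of the 8 were higher and 2 lower, Tbx18 (-0.72) and Krt19 (-0.48). Over pEpiC, 7 were higher in the clone and 1 lower, Tcf21 (-1.87). Upk3b at 2664 CPM and Upk1b at 1165 CPM made up most of the clone's sum, so that sum does not speak for the whole list. The summed level of 10 macrophage genes was 891 CPM in pEpiC library 1, 338 and 311 CPM in pEpiC libraries 2 and 3, 57.9 to 60.9 CPM in CDC and 22.6 to 25.1 CPM in CDC-EpiC. CDC libraries 1 and 2 also carried at least 20 counts of 4 of 5 red blood cell genes, 3 of 6 hepatocyte genes and 3 of 8 heart muscle genes that held at most 3 counts in CDC library 3. The heart muscle list summed to 137 to 153 CPM in pEpiC, against 9.51 to 27.9 CPM in CDC and 10.1 to 12.8 CPM in the clone, with Tnnt2 at 144, 9.59 and 8.79 CPM in pEpiC, CDC and the clone, while Myh6 and Myl2 were at or near 0 in pEpiC. The endothelial list of 8 genes summed to 20.1 to 24.1 CPM in pEpiC, 6.64 to 7.71 CPM in CDC and 8.05 to 9.71 CPM in the clone, with Tek at 17.5, 0.122 and 0.940 CPM in pEpiC, CDC and the clone and Pecam1 and Cdh5 under 0.5 CPM on average in each kind. The macrophage, heart muscle and endothelial sums were highest in pEpiC, where Aldh1a2, Aldh1a3 and Rarb were also highest. The epicardial, hepatocyte and red blood cell sums were not. In pEpiC, Tnnt2 made up most of the heart muscle sum and Tek most of the endothelial sum, so neither sum speaks for its whole list. The part of any other cell type in a difference below was not tested, and in such bulk samples a loss of cells of a type and less RNA per cell cannot be told apart.

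Of the promoters of the members, that of Rarb is printed because it holds the kind of repeat to which the receptors bind. The receptor pair binds direct repeats of a hexamer. The hexamer NGNTCA, with A or G for the first N and G or T for the second, was searched on both strands as repeats with 5, 2 or 1 bases between them, and a window may hold more than a single kind. RefSeq windows on GRCm38.p6, from 250 bases before to 50 bases after a start site, were held for 7 of the 9 genes (14 windows). A repeat with 5 bases between its hexamers was found in 32 of 32851 windows, 0.0974% of them, and Rarb was the only member among the 31 genes with one. The repeats with 2 and with 1 base between were found in 0.268% and 0.222% of all windows and in none of a member. The 250 bases before the annotated start of Rarb (chr14:16575477-16575726, minus strand) are shown for that repeat, in capitals.
Rarb upstream: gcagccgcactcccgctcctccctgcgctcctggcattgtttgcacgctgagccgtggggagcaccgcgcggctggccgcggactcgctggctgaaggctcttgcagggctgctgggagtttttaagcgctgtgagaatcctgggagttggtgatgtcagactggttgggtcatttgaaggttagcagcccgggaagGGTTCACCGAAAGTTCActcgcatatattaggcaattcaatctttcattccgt

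The repeat lies at chr14:16575513-16575529, with its first base 53 bases before the start site, inside the span that RefSeq gives the gene. Among the other retinoid genes listed below, only Cyp26a1, which encodes an enzyme that degrades retinoic acid, had the same spacing. Its repeat lies at chr19:37697776-37697792, on the opposite strand to the gene, and both are set side by side here with the hexamers in capitals.
Rarb repeat: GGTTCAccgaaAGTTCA
Cyp26a1 repeat: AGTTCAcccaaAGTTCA

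These letters are a description of the windows and not evidence of binding. The levels of these 2 genes went apart, since Rarb held 17.86 to 340 expected counts in every library while Cyp26a1 held 0 counts in all CDC and pEpiC libraries and 2, 0 and 1 in CDC-EpiC. Of the 31 genes with the repeat, 7 had enough counts to be tested between pEpiC and CDC, of which 3 were higher and 2 lower in pEpiC, where 78.3% of all genes tested passed. In the clone 1 was higher and 4 lower of 5 tested over CDC (68.8% of all genes passed), and 3 were higher and 4 lower of 7 tested over pEpiC (81.9%).

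Each pair of kinds was compared with edgeR's quasi-likelihood test on the whole table, with Benjamini-Hochberg adjustment and a threshold of 0.05. Between pEpiC and CDC, 8 members had enough counts to be tested and 7 passed, 6 of them higher and 1 lower in pEpiC, against 78.3% of 13526 genes that passed in the whole table (39.8% higher, 38.5% lower). Between CDC-EpiC and CDC, 4 of 7 tested members passed, 2 higher and 2 lower in the clone, against 68.8% of 12976 genes (34.2% higher, 34.6% lower). That split was 3 higher and 1 lower with library size alone, in FPKM and in TPM, and 2 higher and 1 lower with DESeq2. Between CDC-EpiC and pEpiC, 6 of 7 tested members passed, 1 higher and 5 lower in the clone, against 81.9% of 13547 genes (40.3% higher, 41.5% lower). A count near such a background says little about the pathway, so the size of each change and the values in each library are given below. A change of at least 2-fold was called for 30.1%, 21.7% and 35.9% of genes in the 3 comparisons, and for 3 of 8, 1 of 7 and 4 of 7 members. The libraries of the 2 kinds did not overlap for 7 of 8, 4 of 7 and 5 of 7 tested members, beside 81.4%, 72.1% and 83.8% of all genes tested. The 2 comparisons with CDC share the CDC libraries, and the clone and pEpiC libraries are likewise each used in 2 comparisons, so the 3 sets of changes are not independent.

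**Figure D1:**
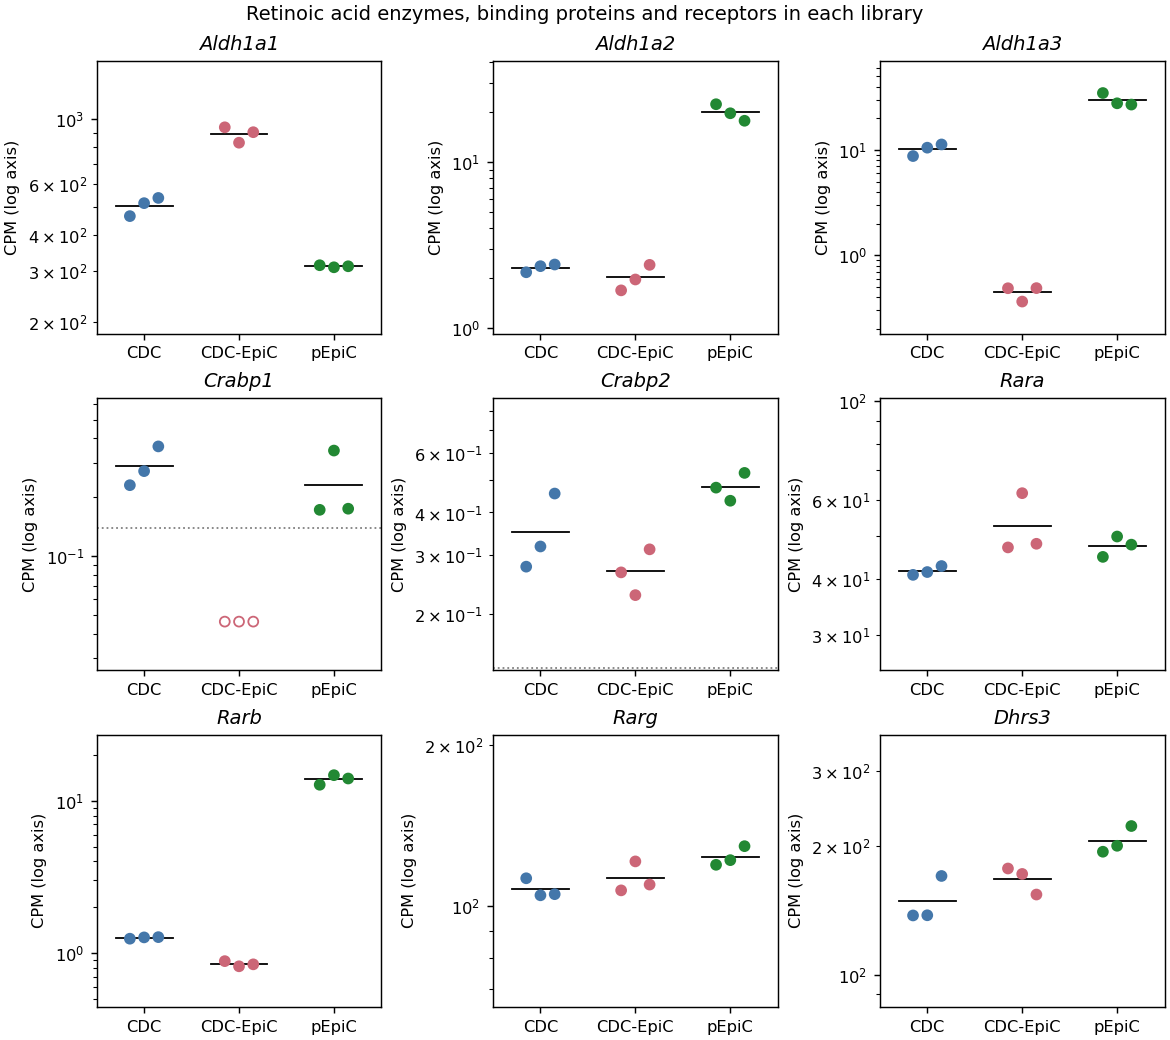
CPM of each of the 9 genes on log axes, one point per library, with a bar at the mean of the 3 libraries of a kind. Aldh1a2 and Rarb stand high in pEpiC alone, Aldh1a3 is lowest in CDC-EpiC, and open circles mark the 0 counts of Crabp1 in CDC-EpiC, drawn below the dotted line at 3 counts.

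Aldh1a1, a retinal dehydrogenase that many adult tissues carry, was the most abundant member in all 3 kinds. The gene lies at chr19:20492583-20643463 on the plus strand. It had 464, 514 and 536 CPM in the CDC libraries, 938, 830 and 902 CPM in CDC-EpiC and 314, 309 and 311 CPM in pEpiC. The clone was highest and pEpiC lowest, and no 2 kinds overlapped. The fitted level was 1.75-fold higher in CDC-EpiC than in CDC (log2 change 0.81, SE 0.09, adjusted p = 8.2e-07, edgeR) and 1.66-fold lower in pEpiC than in CDC (log2 change -0.73, SE 0.07, adjusted p = 3.7e-06). The clone held 2.83-fold more than pEpiC (log2 change 1.5, SE 0.06, adjusted p = 9.2e-09). The near-identical neighbour Aldh1a7 held 0.303% to 1.04% as many counts as Aldh1a1, and since Aldh1a1 counts were not whole in any library, the estimates there include reads divided between genes or transcripts.

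Aldh1a2, the retinal dehydrogenase of the embryonic epicardium, went the other way in pEpiC. It lies at chr9:71215789-71296243 on the plus strand. The CDC libraries held 47, 52 and 53 expected counts, the CDC-EpiC libraries 38, 43 and 54, and the pEpiC libraries 519, 455 and 407. CDC and the clone overlapped, and all pEpiC libraries were far above both. The clone differed from CDC by a log2 change of -0.21 (95% interval -0.63 to 0.22, adjusted p = 0.37 by edgeR), which did not pass, and it was 9.98-fold lower than pEpiC (log2 change -3.32, SE 0.15, adjusted p = 1.6e-08). Of the whole table, 9.86% of genes passed with at least 8-fold between these 2 kinds.

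Aldh1a3, the third enzyme of the family, separated all 3 kinds. The gene lies at chr7:66390892-66427477 on the minus strand. It had 190, 232 and 248 expected counts in CDC, 11, 8 and 11 in CDC-EpiC and 806, 640 and 618 in pEpiC. The 3 ranges were apart, with the clone close to the floor and pEpiC highest. The clone was 22.6-fold lower than CDC (log2 change -4.50, SE 0.20, adjusted p = 3.8e-11, edgeR), where 3.98% of genes passed with at least 8-fold. It was 66.5-fold lower than pEpiC (log2 change -6.05, SE 0.18, adjusted p = 1.0e-09). pEpiC was 2.85-fold higher than CDC (log2 change 1.51, SE 0.12, adjusted p = 1.6e-06).

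The 3 enzymes can be set against each other in TPM, which is per length. Aldh1a1 made up 98.4% ± 0.058 (SD, n = 3) of the summed TPM of the family in CDC, 99.8% ± 0.040 in CDC-EpiC and 89.8% ± 1.11 in pEpiC. Aldh1a2 and Aldh1a3 took 5.15% ± 0.51 and 5.09% ± 0.63 in pEpiC, against 0.405% ± 0.0077 and 1.18% ± 0.065 in CDC and 0.203% ± 0.039 and 0.0293% ± 0.0032 in the clone. The rarer enzymes therefore had their larger share in pEpiC, where their levels of 19.0 to 23.7 TPM and 19.1 to 24.4 TPM overlapped each other. The summed level was 445 ± 44.5 TPM in CDC, 814 ± 64.3 TPM in CDC-EpiC and 416 ± 5.72 TPM in pEpiC. The clone libraries lay above all others, while CDC and pEpiC overlapped in TPM with a ratio of 0.934. An exact two-sided permutation test gave p = 0.1 for both comparisons with the clone, the smallest value that 3 against 3 libraries can give, and p = 0.4 for pEpiC against CDC, or 0.12 and 0.4 after adjustment over the 6 tests of summed levels. In FPKM, which is also per length but does not fix the total of a library, the ratio of pEpiC to CDC was 0.717, and the libraries of the 2 kinds no longer overlapped (172 to 181 against 222 to 258 FPKM).

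**Figure D2:**
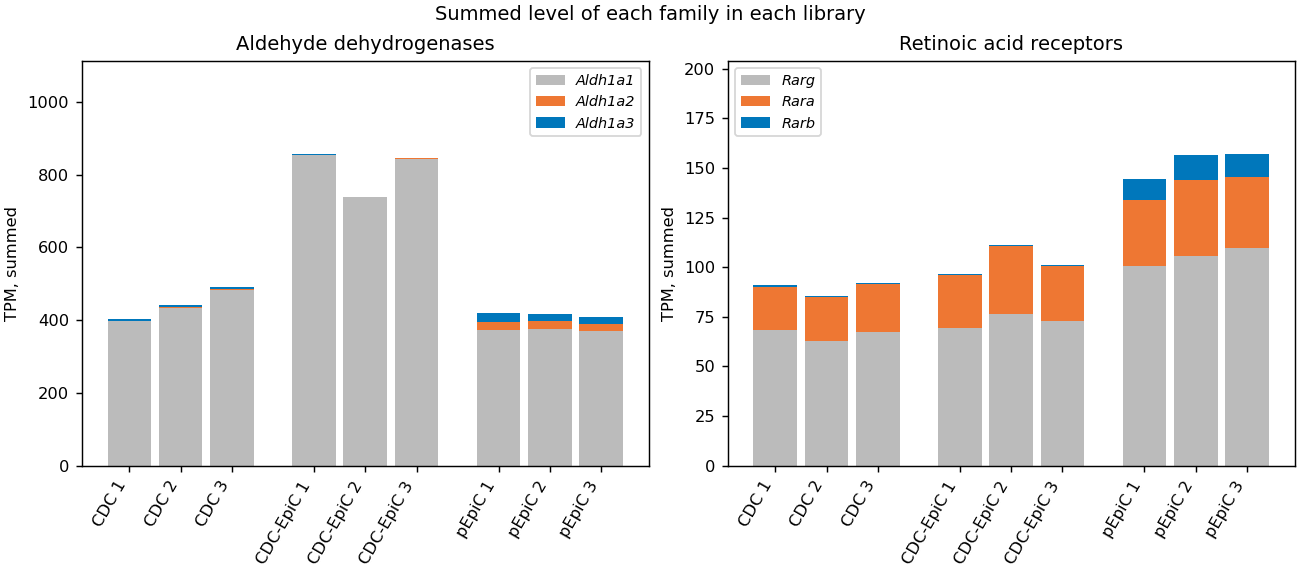
Stacked bars of the summed TPM of the 3 retinal dehydrogenases (left) and of the 3 receptors (right) in each of the 9 libraries. Aldh1a1 fills 98.4% and 99.8% of the left bars in CDC and CDC-EpiC and 89.8% in pEpiC, and Rarb is visible in the right bars of pEpiC alone, at 7.41% on average.

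Dhrs3, which returns retinal to retinol, was the second most abundant member in TPM in every kind, at 167, 199.9 and 309 TPM in CDC, CDC-EpiC and pEpiC. The gene lies at chr4:144892534-144928209 on the plus strand. Its CPM were 138, 138 and 170 in CDC, 177, 172 and 154 in CDC-EpiC and 194, 201 and 223 in pEpiC. CDC and the clone overlapped, and pEpiC lay above both. pEpiC was 1.35-fold higher than CDC (log2 change 0.44, SE 0.09, adjusted p = 0.0012, edgeR), and the clone was 1.24-fold lower than pEpiC (log2 change -0.31, SE 0.07, adjusted p = 0.0025). The clone and CDC differed by a log2 change of 0.17 (95% interval -0.03 to 0.37, adjusted p = 0.12). That value moved to 0.27 and passed without CDC library 3 (adjusted p = 0.0060), which had the highest Dhrs3 of its kind, and was -0.02 with that CDC library alone.

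The binding proteins were hardly expressed. Crabp1 lies at chr9:54764748-54773110 on the plus strand, and its expected counts were 5, 6 and 8 in CDC, 0 in all 3 CDC-EpiC libraries and 4, 8 and 4 in pEpiC. It had too few counts to be tested, and its mean CPM was at least 2.15-fold lower in the clone than in CDC and at least 1.72-fold lower than in pEpiC, taking the floor of 3 counts per library for the clone. With the filter on low counts removed, edgeR gave an adjusted p of 0.0012 against CDC and 0.0045 against pEpiC. Crabp2, the protein that passes retinoic acid to the receptors, lies at chr3:87948693-87953372 on the plus strand. It had 6, 7 and 10 expected counts in CDC, 6, 5 and 7 in the clone and 11, 10 and 12 in pEpiC. It was tested between pEpiC and CDC only, where its log2 change was 0.41 (95% interval -0.42 to 1.23, adjusted p = 0.33 by edgeR), although it passed in the fits on FPKM and TPM and with a correction for transcript length (log2 change 1.27, adjusted p = 0.011). In TPM it was at 0.707 in CDC, 0.567 in CDC-EpiC and 1.32 in pEpiC, with CDC and the clone overlapping.

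Rarb, the receptor whose own promoter holds the repeat printed above, was with Aldh1a2 the member that rose most in pEpiC. The gene spans chr14:16430839-17082331 on the minus strand. Its expected counts were 26.59, 28 and 28 in CDC, 20, 17.86 and 19 in CDC-EpiC and 296, 340 and 321 in pEpiC. The 3 kinds did not overlap, and the pEpiC libraries stood apart from the other 6. pEpiC was 10.6-fold higher than CDC (log2 change 3.41, SE 0.13, adjusted p = 7.5e-09, edgeR), where 6.65% of genes passed with at least 8-fold, and the clone was 16.3-fold lower than pEpiC (log2 change -4.03, SE 0.14, adjusted p = 2.6e-09). The clone was also 1.49-fold lower than CDC (log2 change -0.58, SE 0.24, adjusted p = 0.044). That last call was lost under 15 of 19 alternatives, among them leaving out any of the 6 libraries (adjusted p 0.072 to 0.11), DESeq2 (adjusted p = 0.16), library size alone (0.070), no filter (0.066) and the fits on FPKM (0.060) and TPM (0.075).

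Rara, a receptor found in nearly all tissues, lies at chr11:98927800-98974942 on the plus strand and varied little. It had 40.8, 41.4 and 42.7 CPM in CDC, 47.0, 62.2 and 47.9 CPM in CDC-EpiC and 44.8, 49.8 and 47.7 CPM in pEpiC. CDC was lowest, and the clone and pEpiC overlapped. The clone was higher than CDC (log2 change 0.32, SE 0.10, adjusted p = 0.0091, edgeR), a call lost under 3 of 19 alternatives. Without CDC-EpiC library 2, the highest of all, the change was 0.17 and did not pass (adjusted p = 0.087). pEpiC was 1.11-fold higher than CDC (log2 change 0.15, SE 0.06, adjusted p = 0.041), a call lost under 11 of 19 alternatives. Among these were DESeq2 (adjusted p = 0.075), an offset for transcript length (adjusted p = 0.22) and leaving out CDC library 1 or 2 or pEpiC library 2 or 3 (adjusted p 0.084 to 0.17). The clone and pEpiC differed by a log2 change of 0.13 (95% interval -0.09 to 0.35, adjusted p = 0.25).

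Rarg, at chr15:102234938-102257522 on the minus strand, was the main receptor of these cells by transcript number. Its CPM were 113, 105 and 105 in CDC, 107, 121 and 110 in CDC-EpiC and 120, 122 and 130 in pEpiC. The clone overlapped both other kinds. pEpiC was 1.12-fold higher than CDC (log2 change 0.16, SE 0.06, adjusted p = 0.030, edgeR), and the clone was 1.11-fold lower than pEpiC (log2 change -0.15, SE 0.06, adjusted p = 0.036). The first call was lost under 5 of 19 alternatives, among them leaving out CDC library 2, pEpiC library 2 or pEpiC library 3 (adjusted p 0.067 to 0.14). The second was lost under 7 of 18, among them leaving out CDC-EpiC library 1 or 3 or pEpiC library 2 or 3 (adjusted p 0.060 to 0.14). Between the clone and CDC the log2 change was 0.06 (95% interval -0.11 to 0.22, adjusted p = 0.52).

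In TPM the receptors kept their order in each kind, with Rarg at 73.8% ± 1.0 (SD, n = 3), 70.7% ± 1.86 and 69.1% ± 1.38 of their sum in CDC, CDC-EpiC and pEpiC. Rara followed at 25.4% ± 0.96, 28.8% ± 1.93 and 23.5% ± 0.90, and Rarb held 0.804% ± 0.039, 0.515% ± 0.085 and 7.41% ± 0.50. The rise of Rarb in pEpiC thus left it the scarcest of the 3 receptors there. The summed level was 89.6 ± 3.47 TPM in CDC, 103 ± 7.48 TPM in CDC-EpiC and 152 ± 7.16 TPM in pEpiC, with no overlap between kinds, and each comparison gave p = 0.1 in the exact permutation test (0.12 after adjustment over the 6 tests), the smallest possible. In FPKM the ratio of pEpiC to CDC was 1.31 in place of 1.70.

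The order of all 9 genes in TPM was alike in the 3 kinds at its upper end, with Aldh1a1 (438, 812 and 373 TPM in CDC, CDC-EpiC and pEpiC) above Dhrs3, Rarg and Rara, and these 4 never overlapped. At the lower end, Rarb, Crabp2 and Crabp1 overlapped in CDC (0.69 to 0.76, 0.55 to 0.95 and 0.51 to 0.86 TPM), and Rarb and Crabp2 overlapped in the clone. In pEpiC, Rarb at 10.2 to 12.5 TPM lay clearly above both binding proteins.

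**Figure D3:**
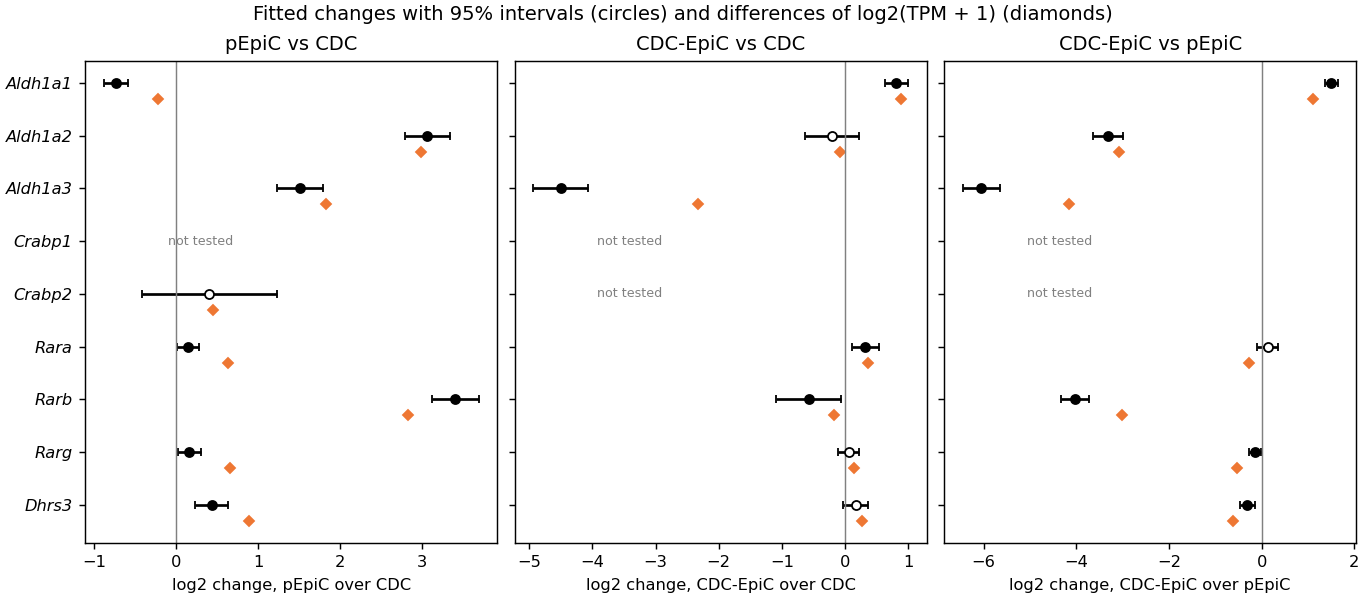
Log2 change of each gene in the 3 comparisons, with circles for the edgeR fit of counts, bars for the 95% interval, filled circles for adjusted p under 0.05 and diamonds for the difference of log2(TPM + 1). Rarb (3.41) and Aldh1a2 (3.07) lie farthest right in pEpiC over CDC, and Aldh1a3 (-4.50 and -6.05) farthest left in both comparisons of the clone.

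The choice of scale shifted the whole table, and the small changes with it. On the log2(TPM + 1) scale the median of all genes was 0.41 in pEpiC over CDC and -0.33 in CDC-EpiC over pEpiC, against 0.02 and -0.02 on the count scale. Aldh1a1 in pEpiC over CDC was -0.23 in TPM, or -0.64 relative to that median. Rara, Rarg and Dhrs3 were 0.64, 0.66 and 0.89 in TPM, or 0.22, 0.25 and 0.48 relative to the median. Rara in CDC-EpiC over pEpiC turned from 0.13 to -0.27 in TPM and passed in limma (adjusted p = 0.027), but was 0.06 relative to the median. The large differences kept their direction on each scale tried: Aldh1a2 and Rarb were 3.00 and 2.84 in pEpiC over CDC on the log2(TPM + 1) scale, and Aldh1a3 was -2.33 in CDC-EpiC over CDC, where the added 1 shrinks a change of low levels.

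pEpiC library 1, the one with the most macrophage counts, was compared with pEpiC libraries 2 and 3 gene by gene. The 10 macrophage genes stood 2.45-fold to 4.20-fold above the mean of the other two libraries. Aldh1a3 stood at 1.27, Aldh1a2 at 1.19, Aldh1a1 at 1.01 and Rarb at 0.887 of that mean. The 9 members lay between 0.661 and 1.27, below each of the macrophage genes. Without pEpiC library 1 the log2 changes over CDC were 2.98 for Aldh1a2, 1.39 for Aldh1a3 and 3.46 for Rarb. Of the 10 macrophage genes, 5 held at most 3 counts in every CDC and CDC-EpiC library.

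**Figure D4:**
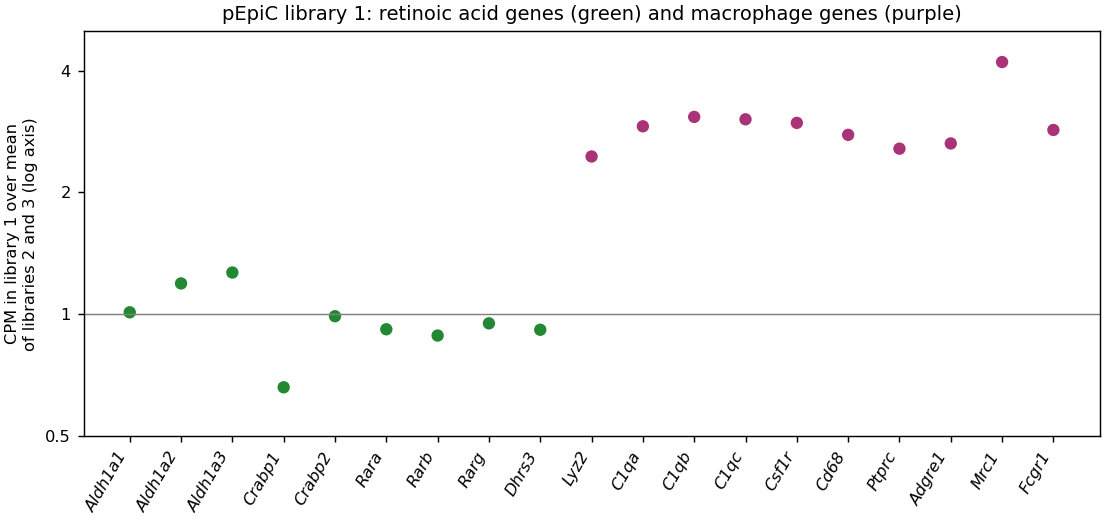
Ratio of the CPM in pEpiC library 1 to the mean of pEpiC libraries 2 and 3 on a log axis, for the 9 retinoic acid genes (green) and 10 macrophage genes (purple). The macrophage genes lie at 2.45 to 4.20 and the retinoic acid genes at 0.661 (Crabp1, at 4 to 8 counts) to 1.27 (Aldh1a3).

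The rest of the pathway was described by 8 lists, which hold 114 genes, 107 of them in the table. Over the lists together, 42 genes were higher and 27 lower of 88 tested in pEpiC over CDC (78.4%, beside 78.3% of all genes), 40 higher and 22 lower of 86 in CDC-EpiC over CDC (72.1%, beside 68.8%), and 37 higher and 39 lower of 90 in CDC-EpiC over pEpiC (84.4%, beside 81.9%). The share that passed was thus near that of the whole table in each comparison. In TPM the splits moved with the table, to 61 higher and 12 lower in pEpiC over CDC (8237 and 2822 in the whole table) and to 27 higher and 50 lower in CDC-EpiC over pEpiC (3691 and 7541 in the whole table). The median log2 change of all genes tested was 0.02, 0.00 and -0.02. The counts and medians of each list below are to be read beside these shares and medians of all genes.

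Of the genes of retinol uptake, storage and transport, 5 were higher and 1 lower of 7 tested in pEpiC over CDC, where 78.3% of all genes passed, with a median log2 change of 1.47. Lpl, the lipase that frees retinyl esters from lipoproteins, was at 61.6 ± 11.1 CPM (SD, n = 3) in CDC, 154 ± 12.3 CPM in the clone and 658 ± 42.6 CPM in pEpiC. Lrp2, or megalin, a receptor that takes up retinol with its carrier, was 4.76 ± 0.45 CPM in CDC, 19.8 ± 1.56 CPM in the clone and 22.5 ± 3.17 CPM in pEpiC. Lrp1, a receptor for lipoprotein remnants, fell in the clone (log2 change -0.97 over CDC) and rose in pEpiC (1.47). In the clone over CDC, 5 genes of the list were higher and 1 lower of 8 tested (median 1.14), and over pEpiC 2 were higher and 3 lower of 7 (median -0.67; 1 and 5 in TPM). Ttr, a carrier in blood counted both here and among the hepatocyte markers, held 39 and 45 counts in CDC libraries 1 and 2 and 17 in library 3.

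The genes listed as retinol and retinal oxidoreductases, Bco1, Bco2 and Aox1 among them, divided the kinds differently. In pEpiC over CDC, 2 were higher and 6 lower of 15 tested (median -0.09), a split that was 7 and 4 in TPM, 3 and 4 in FPKM and 4 and 5 with the offset for transcript length. Among them were Dhrs4 (log2 change -1.0), Adh5 (-0.73) and Akr1b3 (-1.07) lower and Dhrs7 (0.59) higher. In the clone over CDC, 7 were higher and 3 lower of 15 (median 0.28), and over pEpiC 9 were higher and 1 lower of 16 (median 0.45; 5 and 4 in TPM, 4 and 3 with the length offset). Rdh10, the main retinol dehydrogenase of the embryo, had 5.21, 5.39 and 6.69 CPM in CDC, 14.4, 26.2 and 16.8 CPM in CDC-EpiC and 6.20, 6.63 and 7.03 CPM in pEpiC. All clone libraries were above the rest, with library 2 highest. The log2 change was 1.72 over CDC (SE 0.19, adjusted p = 1.0e-06, edgeR) and 1.51 over pEpiC (SE 0.20, adjusted p = 5.6e-05). Aox1, an aldehyde oxidase, was also higher in the clone than in CDC (log2 change 0.71) and pEpiC (0.96).

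Of the enzymes that clear retinoic acid, only Cyp26b1 had enough counts to be tested. It was at 3.78, 4.17 and 4.41 CPM in CDC, 18.7, 19.9 and 24.9 CPM in CDC-EpiC and 4.31, 4.55 and 3.19 CPM in pEpiC. The clone stood above both other kinds, which overlapped. The log2 change was 2.35 over CDC (SE 0.13, adjusted p = 3.9e-10, edgeR) and 2.38 over pEpiC (SE 0.15, adjusted p = 2.5e-07), and pEpiC differed from CDC by -0.07 (SE 0.17, adjusted p = 0.70). Cyp26c1 held 0 to 5 counts per library.

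Among the retinoid X receptors and partners, 6 were higher and 2 lower of 10 in pEpiC over CDC (median 0.89, with 9 and 0 in TPM and 7 and 1 in FPKM and with library size alone), 7 higher and 2 lower of 10 in the clone over CDC (median 0.56), and 5 higher and 5 lower of 10 in the clone over pEpiC (median 0.08). Rxra, the usual dimer partner of the receptors, was at 120, 116 and 120 CPM in CDC, 241, 260 and 259 CPM in the clone and 131, 131 and 133 CPM in pEpiC. It was higher in the clone than in CDC (log2 change 1.08, SE 0.07, adjusted p = 4.0e-09, edgeR). Rora, an orphan nuclear receptor, was highest in pEpiC, at 68.9 ± 1.75 CPM against 21.3 ± 3.23 in CDC and 17.2 ± 1.55 in the clone. Nr2f1, a further orphan receptor that can compete for retinoid elements, was at 5.58 ± 1.11 CPM in CDC, 2.64 ± 0.33 CPM in the clone and 17.9 ± 0.97 CPM in pEpiC. Fabp5, which carries retinoic acid to PPARD, was at 109 ± 13.2, 160 ± 9.88 and 72.9 ± 2.43 CPM in CDC, the clone and pEpiC. The clone was higher than CDC (log2 change 0.54) and pEpiC lower (-0.62).

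Of the corepressors and coactivators of the receptors, 12 were higher and 3 lower of 18 in pEpiC over CDC (median 0.48). The split was 16 and 1 in TPM, 8 and 7 with the offset for transcript length and 11 and 2 in FPKM. The cause of these shifts was not tested. The coactivators Ncoa1 (log2 change 1.53) and Ncoa2 (0.93) and the corepressor Nrip1 (1.74), which ligand-bound receptors recruit, were higher. Prmt1, a methyltransferase that assists nuclear receptors, was lower (-1.54). In the clone over CDC, 7 were higher and 3 lower of 18 (median 0.06), led by Tbl1x (0.67), Crebbp (0.62), Nrip1 (0.62) and Gps2 (0.52). Over pEpiC, 3 were higher and 11 lower of 18 in the clone (median -0.35; 7 and 7 with the length offset), among the latter Ncoa1 (-1.56), Ncoa2 (-1.13) and Nrip1 (-1.16), while Prmt1 was higher (1.23).

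Known target genes of retinoic acid moved both ways. In pEpiC over CDC, 16 were higher and 6 lower of 25 (median 0.55, with 19 and 3 in TPM). In the clone over CDC, 11 were higher and 10 lower of 23 (median 0.06). In the clone over pEpiC, 8 were higher and 16 lower of 25 (median -0.62). Of all genes tested, 78.3%, 68.8% and 81.9% passed in these comparisons. Hoxd4 had 56, 46 and 46 expected counts in pEpiC and 0 in all 6 other libraries, at least 15.6-fold higher than in CDC and at least 15.9-fold higher than in the clone. Hoxb5 was at 1.26 ± 0.31 CPM in CDC, 0.464 ± 0.14 CPM in the clone and 8.27 ± 0.65 CPM in pEpiC. Rarres1, a membrane protein first found as a retinoid-induced gene, went against these, with 46.0, 52.8 and 49.7 CPM in CDC, 16.3, 15.3 and 17.3 CPM in the clone and 1.90, 1.56 and 1.66 CPM in pEpiC (log2 change -4.89 in pEpiC over CDC, SE 0.11, adjusted p = 2.8e-10, edgeR). Rarres2, which encodes chemerin, had 6.03, 5.42 and 4.19 CPM in pEpiC and at most 0.453 CPM in any other library. Meis2, a homeobox gene, was higher in the clone and in pEpiC than in CDC, at 19.2 ± 2.25, 97.9 ± 9.59 and 103 ± 3.30 CPM in CDC, the clone and pEpiC. Gata6, a transcription factor of heart and mesothelium, was higher in the clone than in CDC (log2 change 1.67). Hic1, a transcriptional repressor, was lower in the clone than in CDC (-1.97) and pEpiC (-2.99).

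Other aldehyde dehydrogenases also moved both ways, with 4 higher and 8 lower of 15 in pEpiC over CDC (median -0.29, with 7 and 3 in TPM), 5 higher and 3 lower of 14 in the clone over CDC (median 0.02) and 9 higher and 5 lower of 15 in the clone over pEpiC (median 0.42). The folate enzymes Aldh1l1 (log2 change 2.67) and Aldh1l2 (1.88) were higher in pEpiC than in CDC. Aldh3a1 was lower there (-5.72), at 0.303 ± 0.13 CPM against 15.9 ± 1.98 CPM, and Aldh3b1 was lower too (-1.50). In the clone over CDC, Aldh6a1 (2.19), Aldh7a1 (1.14) and Aldh3b1 (1.14) were higher and Aldh1l1 (-1.77) was lower. Lipid-binding proteins related to the CRABPs were few, with 2 higher and 2 lower of 4 tested in pEpiC over CDC (median 1.07, with 2 and 0 in TPM and 4 and 0 with the length offset), 3 higher and 1 lower of 5 in the clone over CDC (median 0.54) and 2 higher and 3 lower of 5 in the clone over pEpiC (median -1.48, with 1 and 3 under the length offset). Fabp4, the fatty acid carrier of fat cells and macrophages, was at 1.63 ± 0.41 CPM in CDC, 1.87 ± 0.70 CPM in the clone and 31.1 ± 1.52 CPM in pEpiC. The macrophage genes were also highest in pEpiC and differed between its libraries (Lyz2 at 265 ± 151 CPM). A link between Fabp4 and these genes was not tested. Fabp3 was lower in the clone than in CDC (log2 change -1.88).

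**Figure D5:**
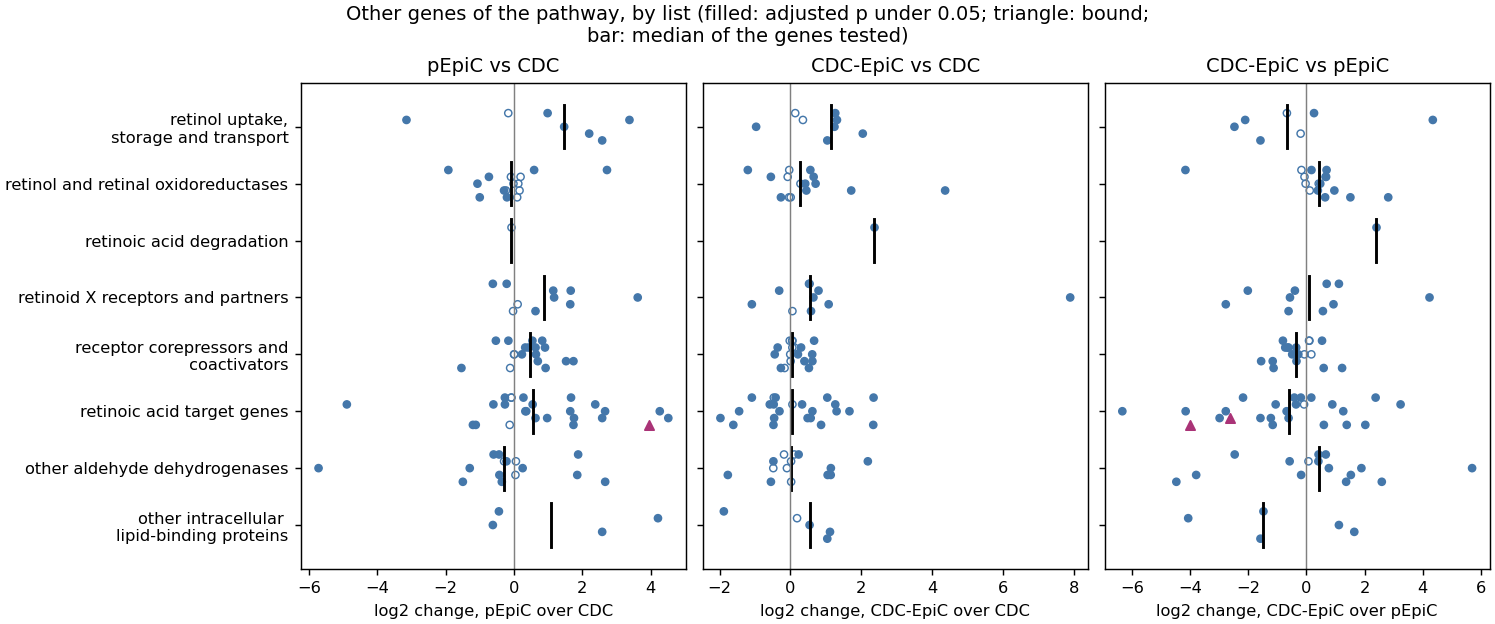
Log2 change of every tested gene of the 8 lists in the 3 comparisons, filled where the adjusted p was under 0.05, with a black bar at the median of the list and triangles at the bound of genes with 0 counts in a kind. Retinol uptake genes have medians of 1.47 and 1.14 over CDC in pEpiC and the clone, and Cyp26b1 stands alone in the degradation list at 2.35 and 2.38 in the clone.

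The genes whose levels followed each member most closely were sought over the 9 libraries, among 12490 genes with a mean of at least 1 CPM, by Pearson r of log2(CPM + 1). Since the 9 libraries are of 3 kinds, a high r says only that the 3 levels have the same pattern, and no p is given. Aldh1a1 was followed by Ddx47 and Cxadr (both r = 0.996) and Ash2l (0.995), with Cxadr at 206, 571 and 88.9 CPM in CDC, CDC-EpiC and pEpiC. Aldh1a2 was followed by Anpep, Art4 and Nfasc (r = 0.998 each), Anpep being at 5.13, 3.93 and 151 CPM. Among those for Aldh1a3 were Slc9a9 (r = 0.999) and Chd3 (0.998). Rarb was followed by Dpyd, Zfp612 and Ebf2 (r = 0.999 each), Ebf2 being at 0.381, 0.0592 and 29.5 CPM. The genes that varied little had weaker companions, with Egr3 for Rara (r = 0.962), Galnt10 for Rarg (0.960) and Zc3h15 for Dhrs3 (0.976). Crabp1 and Crabp2 were under 1 CPM in every library, and no companion is given for them.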

How the data were processed

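The authors deposited a single table with 9 library columns, 3 for each of CDC, CDC-EpiC and pEpiC, each in 3 units. Expected counts are estimated reads per gene that the authors deposited without normalization, and 30.3% of the values are not whole. FPKM and TPM were deposited beside them. Both divide by transcript length, and only TPM has the same sum in every library. The submitters' processing notes name mm10, HISAT2 2.0.4, Bowtie2 2.2.5, RSEM 1.2.12 and DESeq2 1.4.5. The annotation and the use of strand are not given in the sources used here. The authors' columns of means were not used. The labels give 1 sample per kind and speak of separate samples at extraction, so the columns were taken as replicates (n = 3), although the study's methods speak of 2 biological replicates. What the columns share was not given, and each SD, SE and p-value rests on this reading. Pairs of libraries of a kind had a chi-square of 4.89 to 23.0 for each degree of freedom, above sampling noise.

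Expected counts were rounded to whole numbers and fitted for each pair of kinds in edgeR 4.0.16 under R 4.3.3 (filterByExpr with a minimum count of 10 and minimum total of 15, TMM, glmQLFit, glmQLFTest), with Benjamini-Hochberg adjustment over all genes tested and a threshold of 0.05. The fit was tested on simulated counts with a single dispersion and few changed genes. Those counts are simpler than these data, so the test does not speak for the calls made here. Differences are coded as the named kind over the other, and standard errors are those of the log2 changes. Bounds and floors cover counting error only, since PCR copies of a molecule are not independent. Positions and promoter windows are RefSeq on GRCm38.p6. Python 3.11.15 with pandas 2.3.3, SciPy 1.17.1 and matplotlib 3.10.9 was used for the rest.

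The members and lists were chosen with earlier results of these data known. All 9 members are given. From each list, up to 4 genes per comparison are named, those with the largest log2 change among genes that passed, without overlap and reaching 5 CPM in the higher kind, and 3 genes most like each member. Not all of these are printed, 3 genes are not reported here, and Ttr, Hoxd4, Cyp26a1 and Cyp26c1 were chosen after their values were seen. The alternatives were RLE normalization, library size alone, DESeq2 1.42.0, a minimum of 10 counts per library, no minimum, 1 fit over the 9 libraries, limma 3.58.1 on log2(FPKM + 1), log2(TPM + 1) and log2(FPKM + 0.1), an offset for transcript length, a test against a 1.5-fold change, leaving out each library, and the library number as a block. Leaving out CDC libraries 1 and 2 together was added after seeing the data.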

Additional observations from a re-analysis of the deposited data

How the results depend on the processing

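Of 408 values of the members under an alternative, 351 kept their direction and their side of the threshold, 43 lost the call, 9 gained one and 5 changed sign. The log2 changes of Aldh1a2 and Rarb in pEpiC over CDC and over the clone, and those of Aldh1a1 and Aldh1a3 in each comparison, were called under every alternative that gave a value. Sign changes were all of values near 0, except in TPM. Rarg in CDC-EpiC over CDC was -0.0055 with the length offset and ranged from -0.010 (without CDC-EpiC library 2) to 0.092 when single libraries were left out. Dhrs3 there was -0.025 without CDC libraries 1 and 2. Rara in CDC-EpiC over pEpiC was -0.27 in TPM and ranged from -0.0067 (without CDC-EpiC library 2) to 0.20 when single libraries were left out.

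The number of members called fell from 7 to 4 in pEpiC over CDC and from 4 to 2 in CDC-EpiC over CDC when the test was against a 1.5-fold change, which asks for more than any change. In the latter comparison it was also 2 without CDC libraries 1 and 2 and ranged from 2 to 4 when single libraries were left out, being lowest without CDC-EpiC library 2. Against a 1.5-fold change, calls in the other retinoid genes fell from 69 to 40 in pEpiC over CDC, from 62 to 26 in CDC-EpiC over CDC and from 76 to 46 in CDC-EpiC over pEpiC. Over the whole table they fell from 10593 to 5549, from 8928 to 3664 and from 11092 to 6578. In FPKM in place of TPM, the ratio of the summed retinal dehydrogenases was 0.717 in pEpiC over CDC (0.934 in TPM) and 2.52 in CDC-EpiC over pEpiC (1.96 in TPM), and that of the receptors was 1.31 (1.70) and 0.869 (0.676). The cause of these shifts was not tested. With the library number as a replicate block, 5, 3 and 6 members were called in the 3 comparisons, but libraries of the same number deviated together by r of -0.10 to 0.16 only, so the number was not taken as a pairing. At 0 to 12 counts per library, Crabp1 and Crabp2 limit what can be said of the binding proteins, and their calls changed with the filter and the scale. The 3 libraries of the clone cannot speak for other clones.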
